A study of Mus musculus with 12 samples.

Results

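The expression of 10 genes for B cell inhibitory coreceptors and the phosphatases that act with them was followed in resting B (RB) cells given signals through TLR-2, CD86 or CD40. They were the receptors Cd22, Siglecg, Cd72, Fcgr2b, Pirb, Lair1, Btla and Cd5 and the phosphatases Ptpn6 and Ptpn22, chosen by name out of 50090 gene symbols on a custom mouse microarray. The rule, equality of a probe's gene name with the symbol, found 9 of the 10. Pirb carries the human-style name Lilrb3 on this array and was matched through its accession, which the RefSeq gene table gives to Pirb. The 10 genes have 18 probes, of which 17 were well above background on all 12 arrays and were tested, and none was saturated. The dimmest Lair1 probe was above background on no array. Each gene is described by its brightest probe. Of the genes, 6 had further tested probes, which are given beside it, and 4 had 1 probe only.

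RB cells were spleen B cells of BALB/c mice obtained by removing cells that carry CD43, a marker of activated B cells and of most non-B leukocytes, and per the labels the donors were female mice 6 weeks old. The stimulated cells were cultured for 4 h in medium with serum, and the labels give the same 4 h for the unstimulated cells without saying how they were kept. The 6 groups of 2 arrays each were left unstimulated or received Pam2CSK4, a synthetic lipopeptide that engages TLR-2, an antibody to CD86, anti-CD86 with Pam2CSK4 (TLR2.CD86), an antibody to CD40, or anti-CD40 with Pam2CSK4. The study's figure legends call the arrays of a group biological replicates. Neither they nor the labels say whether the samples came from separate mice, and the p-values measure the spread between these samples. An isotype control antibody was not analysed here.

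The unit throughout is the log2 signal, that is, log2 of the spot's processed intensity minus the 75th percentile of its array, so that 0 is the intensity that 75% of probes stay under. A difference of 1 is a change of 2-fold. Levels are compared between groups for 1 probe and never between probes. A gene was called where limma's moderated test across 31599 probes gave a Benjamini-Hochberg adjusted p under 0.05. The arrays lay on 2 slides. Slide 1 held both unstimulated arrays, both arrays of anti-CD40 with Pam2CSK4 and replicate 1 of the other 4 groups, and slide 2 held replicate 2 of those 4. Between 46.6% and 60.6% of spots were well above background, the highest share belonging to anti-CD40 replicate 2. Each comparison is therefore given also from a second, slide-blocked fit, which holds a term for the slide, estimated from the 4 groups that lie on both.

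Inhibitory coreceptors set the threshold at which a B cell responds. Most carry, in their cytoplasmic tail, an immunoreceptor tyrosine-based inhibitory motif (ITIM), a short stretch around a tyrosine that the kinase Lyn phosphorylates when the receptor is brought close to the B cell receptor. The phosphorylated ITIM then recruits the tyrosine phosphatase SHP-1, encoded by Ptpn6, or, for the IgG receptor FcγRIIb, the lipid phosphatase SHIP-1, encoded by Inpp5d. Cd22 and Siglecg bind sialic acids on the B cell's own surface and on its neighbours, and loss of such receptors in mice is known for lowered B cell thresholds and autoantibodies.

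The probes of the sialic acid receptors are shown because the ITIM pattern was searched in them. The brightest Cd22 probe and the Siglecg probe each hold an 18-base run, in capitals, whose letters match the codons of the pattern. The search took the codons of the ITIM consensus in any of the reading frames of the probe's strand. Of the 18 probes, 3 held such a run (the other is the probe of Ptpn22, a phosphatase without an ITIM), against 3.86% of all 61307 probes, so that the run alone marks neither an ITIM nor coding sequence, and where the probes lie in the transcripts was not tested.

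Cd22, bases 14 to 31 in capitals: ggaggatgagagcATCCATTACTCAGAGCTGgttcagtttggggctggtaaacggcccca

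Siglecg, bases 8 to 25 in capitals: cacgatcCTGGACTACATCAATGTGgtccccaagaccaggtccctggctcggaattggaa

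The pair of Cd72 probes shared 32 bases, shown in capitals in both, and so are not independent readings of the gene. The Pirb probes shared 50 of their 60 bases in the same way.

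Cd72, brightest probe: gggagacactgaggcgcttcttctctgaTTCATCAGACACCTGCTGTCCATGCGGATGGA

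Cd72, second probe: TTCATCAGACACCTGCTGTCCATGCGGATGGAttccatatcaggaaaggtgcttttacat

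Of the receptors, Btla and Fcgr2b changed most, and they moved in opposite directions. With anti-CD40, Btla rose 2.74-fold and Fcgr2b fell 2.68-fold against unstimulated cells, and both did the same with anti-CD40 and Pam2CSK4. Ptpn22 fell in both of these groups and also in TLR2.CD86. In the fit over all 12 arrays without a block no other gene of the 10 was called by its brightest probe in any comparison. On slide 1 alone Pirb and Lair1 were also called lower with anti-CD40 and Pam2CSK4 against unstimulated cells, where 40.3% of all probes were called. The 1 TLR2.CD86 array there was 0.61 above unstimulated cells for Cd22 and 0.37 above for Siglecg.

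Counted over the 10 genes, 0 were called with Pam2CSK4, where 0.136% of all probes were called, and 0 with anti-CD86, where 2.14% were. In TLR2.CD86 cells 1 was called, against 10.6% of all probes. With anti-CD40, 3 were called against 16.7% of all probes, and with anti-CD40 and Pam2CSK4 the same 3 against 18.2%. Without either of the unstimulated arrays 1 gene, Btla, was called with anti-CD40. A count of 1 to 3 out of 10 genes against 10.6% to 18.2% of all probes does not by itself set the 10 genes apart. At an unadjusted p under 0.05 the counts were 2, 3, 3, 4 and 4 in the same order. The share of all probes under that threshold is not given here or below, so such counts are no result about the 10 genes. The median difference of the 10 genes was -0.19 with Pam2CSK4, -0.18 with anti-CD86, -0.21 in TLR2.CD86, -0.33 with anti-CD40 and -0.13 with anti-CD40 and Pam2CSK4, beside medians over all tested probes of -0.07, -0.05, -0.03, -0.01 and 0.01. In the slide-blocked fit the medians of the 10 genes were -0.04, 0.001, -0.04, -0.18 and -0.13, in the same order. Over all tested probes they were -0.04, -0.05, -0.01, 0.004 and 0.01 in that fit. The arrays of the stimulated group did not overlap with the unstimulated pair for 6, 7, 7, 8 and 10 of the 10 genes, where 57.5%, 62.3%, 64%, 62.2% and 76% of all tested probes did not, so a lack of overlap with unstimulated cells was common to most probes.

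The slide-blocked fit called more genes, and more of all probes. With Pam2CSK4 3 of the 10 genes were called (Cd22 higher, Lair1 and Ptpn22 lower), against 10.8% of all probes. With anti-CD86 5 were called (Cd22 and Siglecg higher, Pirb, Cd5 and Ptpn22 lower), against 28.3%. In TLR2.CD86 cells 7 were called (Cd22, Siglecg and Cd72 higher, Pirb, Lair1, Cd5 and Ptpn22 lower), against 34.9%. With anti-CD40 6 were called (Btla higher, Siglecg, Fcgr2b, Pirb, Cd5 and Ptpn22 lower), against 37.1%. With anti-CD40 and Pam2CSK4 7 were called (Cd72 and Btla higher, Fcgr2b, Pirb, Lair1, Cd5 and Ptpn22 lower), against 47.4%. In each of these 5 comparisons unstimulated cells are represented on slide 1 only. Against groups that lie on both slides, the slide's effect on unstimulated cells is assumed to be that seen in the other groups. Anti-CD40 with Pam2CSK4 also lies on slide 1 only, so its differences from unstimulated cells are the same with and without the block.

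**Figure D1:**
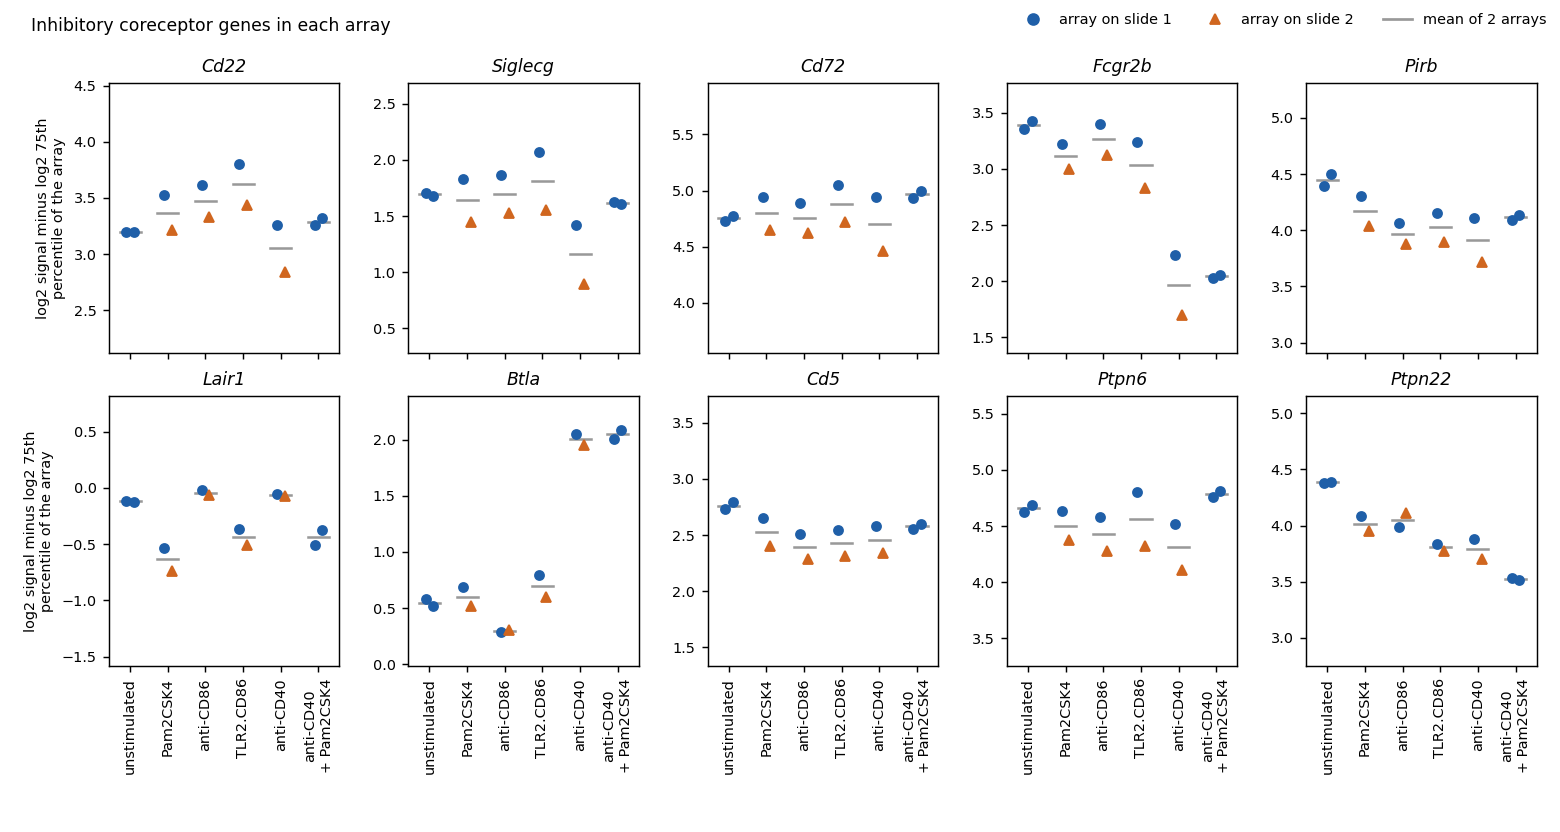
Log2 signal (above the array's 75th percentile) of the brightest probe of each of the 10 genes on the 12 arrays, with 1 panel a gene, groups along the horizontal axis, points for single arrays marked by slide, and lines for group means. Btla sits near 2.0 in both groups with anti-CD40 and between 0.29 and 0.80 elsewhere, and Fcgr2b between 1.70 and 2.23 in both groups with anti-CD40 and between 2.83 and 3.42 elsewhere.

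Btla, the receptor for the TNF receptor family member HVEM, had log2 signals of 0.58 and 0.51 in unstimulated cells. The arrays read 0.69 and 0.52 with Pam2CSK4, 0.29 and 0.31 with anti-CD86, and 0.80 and 0.60 in TLR2.CD86 cells. They read 2.05 and 1.95 with anti-CD40 and 2.01 and 2.09 with anti-CD40 and Pam2CSK4. The 4 arrays with anti-CD40 lay above the other 8 with no overlap. Against unstimulated cells the difference was 1.46 ± 0.12 (SE, n = 2 a group, 95% interval 1.19 to 1.73, adjusted p = 0.000834, limma) with anti-CD40. With anti-CD40 and Pam2CSK4 it was 1.50 ± 0.12 (interval 1.23 to 1.77, adjusted p = 0.000238, limma). On slide 1 alone the anti-CD40 array was 1.50 above the mean of the unstimulated pair.

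At the lower end of the order, Btla with anti-CD86 alone stood below every other group, 0.25 under unstimulated cells, which did not pass the test (limma adjusted p = 0.251, 0.101 in the slide-blocked fit). TLR2.CD86 exceeded anti-CD86 by 0.40 (limma adjusted p = 0.366), and this difference passed in the slide-blocked fit (0.40, adjusted p = 0.0275). TLR2.CD86, Pam2CSK4 and unstimulated cells, which follow each other in the order, overlapped with their neighbours, as did the pair of groups with anti-CD40.

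Btla is also made by T cells. The summed level of 6 T cell markers, 5 of them well above background on all arrays, was 14.4 to 14.7 times the 75th percentile in unstimulated cells. It was 10.99 to 13.6 with Pam2CSK4, 10.6 to 12.3 with anti-CD86, 9.34 to 12.6 in TLR2.CD86 cells, 10.0 to 13.3 with anti-CD40 and 12.9 to 13.3 with anti-CD40 and Pam2CSK4. The groups with anti-CD40 thus lay below unstimulated cells and within the range of the other 3, and the part of T cells in the Btla values was not tested.

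Fcgr2b encodes FcγRIIb, the inhibitory receptor for IgG complexes. Its log2 signals were 3.36 and 3.42 in unstimulated cells, 3.23 and 3.0 with Pam2CSK4, 3.40 and 3.12 with anti-CD86, and 3.24 and 2.83 in TLR2.CD86 cells. They were 2.23 and 1.70 with anti-CD40, and 2.03 and 2.06 with anti-CD40 and Pam2CSK4. The 4 arrays with anti-CD40 lay below the other 8. The first 4 groups of the order overlapped with their neighbours, as did the 2 groups with anti-CD40, and the only break was between them.

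Against unstimulated cells Fcgr2b fell by 1.42 with anti-CD40 (SE 0.21, n = 2 a group, interval -1.91 to -0.94, adjusted p = 0.00641, limma) and by 1.35 with anti-CD40 and Pam2CSK4 (SE 0.21, interval -1.83 to -0.86, adjusted p = 0.00445, limma). All 3 Fcgr2b probes were called in both comparisons. The other probes differed by -1.31 and -1.39 with anti-CD40, and by -1.30 and -1.62 with anti-CD40 and Pam2CSK4. The call with anti-CD40 was lost without either unstimulated array and that with anti-CD40 and Pam2CSK4 held with each array left out. On slide 1 alone the difference with anti-CD40 was -1.16, and in the slide-blocked fit it was -1.24 (limma adjusted p = 0.000259). For the brightest probe Pam2CSK4, anti-CD86 and TLR2.CD86 left differences of -0.28, -0.13 and -0.35, none of which passed the test (limma adjusted p = 0.514, 0.749 and 0.293). Without the block the 3 probes had the same sign in all 5 comparisons, and their calls did not differ. The dimmest probe read 1.02 and 0.92 in unstimulated cells, 0.57 and 0.31 with Pam2CSK4, 0.67 and 0.48 with anti-CD86, and 0.62 and 0.38 in TLR2.CD86. In the slide-blocked fit the probes differed in call in 3 of the 5 comparisons.

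Fcgr2b is expressed by myeloid cells as well as B cells. Among 8 myeloid markers, all well above background on all arrays, S100a9 was saturated. The summed level of the other 7 was highest in unstimulated cells, at 151.2 to 151.4 times the 75th percentile. It was 122.6 to 126.3 with Pam2CSK4, 105.1 to 106.1 with anti-CD86, 101.9 to 106.7 in TLR2.CD86 cells, 90.1 to 101.7 with anti-CD40 and 112.3 to 114.2 with anti-CD40 and Pam2CSK4. S100a8, a granulocyte and monocyte protein gene, differed from unstimulated cells by -0.51 with anti-CD86, -0.58 in TLR2.CD86, -0.67 with anti-CD40 and -0.46 with anti-CD40 and Pam2CSK4, each called, and the calls were lost in 10, 4, 2 and 4 of 12 fits with an array left out, those without either unstimulated array among them. S100a8 made up most of the summed level, so the sum largely repeats it. Itgam was called lower in TLR2.CD86 and with anti-CD40 and Pam2CSK4 (-0.79 and -0.81), and not with anti-CD40 alone. Emr1 was called lower in TLR2.CD86, with anti-CD40 and with anti-CD40 and Pam2CSK4 (-0.89, -0.68 and -0.77). Apart from Itgam with anti-CD40 and Pam2CSK4, these calls were lost without either unstimulated array. In bulk RNA fewer cells of a type and less RNA per cell cannot be told apart, and the part of myeloid cells in the Fcgr2b difference was not tested.

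The B cell markers moved with the groups as well. The summed level of the 6 unsaturated ones, all well above background, was 179.9 to 220.2 with anti-CD40 and 210.6 to 219.7 with anti-CD40 and Pam2CSK4. It was 158.7 to 159.4 in unstimulated cells, 142.1 to 164.9 with Pam2CSK4, 143 to 157.8 with anti-CD86 and 154.1 to 175.1 in TLR2.CD86 cells. The 4 arrays with anti-CD40, where Btla was high and Fcgr2b low, thus had the highest sums. Of the single markers Fcer2a, which encodes CD23, rose by 1.21 with anti-CD40 and 1.49 with anti-CD40 and Pam2CSK4 (limma adjusted p = 0.00542 and 0.00125), the first lost without either unstimulated array. Cr2, which encodes CD21 and CD35, fell by 0.51 with anti-CD40 (limma adjusted p = 0.0388, lost in 7 of 12 fits with an array left out). The part of these shifts in the Btla and Fcgr2b differences was not tested.

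The start regions of the genes that were called are shown, because Btla, Fcgr2b and Ptpn22 moved together, 1 up and 2 down, in the groups with anti-CD40. The windows are RefSeq's, on GRCm38.p6, from 250 bases before to 50 after the start of the gene, and are written in the direction of the gene. Capitals mark a match to 1 of 2 motifs searched on both strands, an NF-κB type motif of 10 bases (GGGA and CC with any 4 bases between them) and GAGGAAGT (an Ets or PU.1 type motif). The matches of the 2 motifs did not overlap each other in any window of the 10 genes. The first was found in 20.7% of all 32851 windows and in those of 4 of the 10 genes (Fcgr2b, Pirb, Ptpn22 and Ptpn6). The second was found in 3.2% of windows and in those of 4 (Btla, Cd5, Cd72 and Pirb). Ptpn22 has 2 windows in that table, and the one with a match is shown. A match is a stretch of letters and not a measured site.

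Btla, chr16:45224087-45224386, plus strand, GAGGAAGT at -18 to -11: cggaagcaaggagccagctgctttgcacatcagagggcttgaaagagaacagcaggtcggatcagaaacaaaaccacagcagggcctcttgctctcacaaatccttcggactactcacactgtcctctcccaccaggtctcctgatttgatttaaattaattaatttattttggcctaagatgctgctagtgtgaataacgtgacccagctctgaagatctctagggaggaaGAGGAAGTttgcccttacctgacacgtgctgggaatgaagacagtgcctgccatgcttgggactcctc

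Fcgr2b, chr1:170976022-170976321, minus strand, NF-κB type match at -67 to -58: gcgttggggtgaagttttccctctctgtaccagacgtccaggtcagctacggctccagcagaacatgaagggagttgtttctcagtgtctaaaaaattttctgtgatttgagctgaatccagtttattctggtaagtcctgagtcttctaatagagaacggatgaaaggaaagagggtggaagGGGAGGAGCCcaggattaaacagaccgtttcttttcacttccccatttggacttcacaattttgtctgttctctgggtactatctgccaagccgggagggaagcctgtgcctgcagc

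Ptpn22, chr3:103859545-103859844, plus strand, NF-κB type match on the opposite strand at -158 to -149: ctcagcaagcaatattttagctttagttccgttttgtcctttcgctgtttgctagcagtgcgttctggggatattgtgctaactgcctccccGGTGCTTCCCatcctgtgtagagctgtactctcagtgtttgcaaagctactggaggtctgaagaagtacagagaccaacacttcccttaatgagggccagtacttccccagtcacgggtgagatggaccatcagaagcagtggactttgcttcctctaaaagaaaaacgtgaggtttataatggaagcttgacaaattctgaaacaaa

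The sialic acid receptors were called higher in TLR2.CD86 than in unstimulated cells in the slide-blocked fit. They did not pass over all 12 arrays without the block. On slide 1 the 1 TLR2.CD86 array was 0.61 above the mean of the unstimulated pair for Cd22 and 0.37 above it for Siglecg. Cd22, the receptor for sialic acids in an α2,6 linkage, read 3.19 and 3.19 in unstimulated cells, 3.52 and 3.22 with Pam2CSK4, 3.62 and 3.33 with anti-CD86, 3.80 and 3.44 in TLR2.CD86 cells, 3.26 and 2.84 with anti-CD40, and 3.25 and 3.32 with anti-CD40 and Pam2CSK4. Every array with Pam2CSK4, anti-CD86 or both lay above both unstimulated arrays, and replicate 1, on slide 1, was the higher of the pair in each of the 4 groups that lie on both slides. The difference in TLR2.CD86 cells was 0.43 (SE 0.20, n = 2 a group, interval -0.03 to 0.88, adjusted p = 0.187, limma). After slide blocking it was 0.60 (interval 0.46 to 0.74, adjusted p = 0.00124, limma), beside 0.35 with Pam2CSK4 and 0.45 with anti-CD86 (adjusted p = 0.0211 and 0.00385). The second, dimmer Cd22 probe had the same sign in 4 of 5 comparisons and read -0.13 with anti-CD86. In the slide-blocked fit it was called in TLR2.CD86 (0.53, limma adjusted p = 0.0324) and not with Pam2CSK4 or anti-CD86.

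For Siglecg, the Siglec-G receptor that restrains B-1 cells in particular, the arrays read 1.71 and 1.68 in unstimulated cells, 1.83 and 1.45 with Pam2CSK4, 1.87 and 1.52 with anti-CD86, and 2.07 and 1.56 in TLR2.CD86 cells. They read 1.42 and 0.90 with anti-CD40 and 1.62 and 1.61 with anti-CD40 and Pam2CSK4. The anti-CD40 arrays were the lowest pair and overlapped with no other group. Against unstimulated cells that difference was -0.54 (interval -1.09 to 0.02, adjusted p = 0.16, limma), and -0.32 in the slide-blocked fit (adjusted p = 0.0106, limma). With the block Siglecg was 0.34 higher in TLR2.CD86 (adjusted p = 0.00936, limma).

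Cd72, a C-type lectin whose ligand is CD100, varied least of the 10 genes, its group means spanning 0.26. The unstimulated arrays read 4.73 and 4.78, and all 12 arrays lay between 4.46 and 5.05. Each group overlapped with its neighbours in the order of means. Its differences from unstimulated cells ran from -0.05 to 0.21, with an interval of -0.24 to 0.67 for the largest, in anti-CD40 with Pam2CSK4. After slide blocking that difference was called (0.21, adjusted p = 0.0371, limma), as was 0.30 in TLR2.CD86 (adjusted p = 0.0181). In that fit the second probe had the same sign in all 5 comparisons with unstimulated cells, and lay at most 0.08 from the first. The 2 probes differed in call in 2 of the 5.

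Pirb and Cd5 were highest in unstimulated cells, and no stimulated group overlapped with these, as was the case for 57.5% to 76% of all probes in the single comparisons. Pirb, a receptor for MHC class I that B cells share with myeloid cells, read 4.39 and 4.50 in unstimulated cells, 4.31 and 4.04 with Pam2CSK4, 4.06 and 3.88 with anti-CD86, 4.16 and 3.90 in TLR2.CD86, 4.11 and 3.71 with anti-CD40, and 4.09 and 4.14 with anti-CD40 and Pam2CSK4. The largest difference, with anti-CD40, was -0.53 (SE 0.17, interval -0.93 to -0.14, adjusted p = 0.0695, limma). The second Pirb probe passed the test there (-0.47, adjusted p = 0.0409), and the brightest did with normexp background correction, with quantile normalization and without anti-CD40 replicate 1. After slide blocking the brightest probe was called in each group but Pam2CSK4, with differences of -0.28 to -0.39.

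The Pira genes are near-identical to Pirb in their extracellular part, and how far the Pirb probes also read them is uncertain. Pira11, an activating receptor of that family, was lower by 0.59 with anti-CD40 (called, adjusted p = 0.0189, limma), a call lost without either unstimulated array and without anti-CD40 replicate 2. The myeloid markers given above were likewise highest in unstimulated cells, and their part in the Pirb values was not tested.

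Cd5, a scavenger-type receptor of T cells and B-1 cells, read 2.73 and 2.79 in unstimulated cells and 2.29 to 2.66 on the 10 stimulated arrays. The differences were -0.23 with Pam2CSK4, -0.36 with anti-CD86, -0.33 in TLR2.CD86, -0.30 with anti-CD40 and -0.18 with anti-CD40 and Pam2CSK4, with limma adjusted p between 0.18 and 0.458. Blocked by slide, all but the first were called, at -0.24, -0.21, -0.19 and -0.18. The summed T cell markers had the same order at the top, 14.4 to 14.7 in unstimulated cells and 9.34 to 13.6 in stimulated ones, and their part in the Cd5 values was not tested.

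Lair1, a receptor for collagens, separated the groups by Pam2CSK4. Its log2 signals were -0.11 and -0.13 in unstimulated cells, -0.02 and -0.07 with anti-CD86, and -0.05 and -0.08 with anti-CD40. They were -0.53 and -0.74 with Pam2CSK4, -0.36 and -0.51 in TLR2.CD86 cells, and -0.50 and -0.37 with anti-CD40 and Pam2CSK4. The 6 arrays with Pam2CSK4 lay below the 6 without it.

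Without the block none of these Lair1 differences passed the test. Pam2CSK4 against unstimulated cells gave -0.52 (SE 0.12, interval -0.79 to -0.25, adjusted p = 0.134, limma), TLR2.CD86 against anti-CD86 gave -0.39 (adjusted p = 0.376) and anti-CD40 with Pam2CSK4 against anti-CD40 gave -0.37 (adjusted p = 0.152). In the slide-blocked fit the 3 differences were -0.46, -0.39 and -0.43, and all were called (limma adjusted p = 0.0192, 0.0303 and 0.015). The interaction of anti-CD86 with Pam2CSK4 was 0.12 (interval -0.26 to 0.50), and that of anti-CD40 with Pam2CSK4 was 0.14 (interval -0.24 to 0.52), neither called. The second Lair1 probe had the same sign as the first in 3 of 5 comparisons with unstimulated cells. It read -0.30 with anti-CD40 where the first read 0.06, so the split by Pam2CSK4 rests on the brightest probe. In the slide-blocked fit the second probe was called only in TLR2.CD86 (-0.57, limma adjusted p = 0.0355) of these 5. Lair1 is also expressed by myeloid and T cells, whose part was not tested.

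Of the phosphatases, Ptpn22 was lower in 3 stimulated groups, while Ptpn6 was called by neither probe against unstimulated cells over all 12 arrays without the block. Ptpn22 encodes PEP, a phosphatase that works with the kinase Csk against Src family kinases. Its log2 signals were 4.38 and 4.39 in unstimulated cells, 4.09 and 3.95 with Pam2CSK4, 3.99 and 4.11 with anti-CD86, 3.83 and 3.78 in TLR2.CD86 cells, 3.88 and 3.70 with anti-CD40, and 3.53 and 3.52 with anti-CD40 and Pam2CSK4. All 10 stimulated arrays lay below both unstimulated arrays, and the lowest pair did not overlap with any other group.

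Ptpn22 fell by 0.58 in TLR2.CD86 (SE 0.11, interval -0.84 to -0.33, adjusted p = 0.0224, limma), by 0.60 with anti-CD40 (interval -0.85 to -0.34, adjusted p = 0.0133) and by 0.86 with anti-CD40 and Pam2CSK4 (interval -1.12 to -0.61, adjusted p = 0.00202). The last is a fall of 1.82-fold. Pam2CSK4 and anti-CD86 gave -0.37 and -0.34, which did not pass (limma adjusted p = 0.206 and 0.127) and did in the slide-blocked fit (-0.34 and -0.31, adjusted p = 0.0463 and 0.0324). The TLR2.CD86 call was lost when either unstimulated array, either TLR2.CD86 array or either array of anti-CD40 with Pam2CSK4 was left out, and with these left out in turn the count of genes called there was 0. The anti-CD40 call was lost without either unstimulated array or without anti-CD40 replicate 2, and the call in anti-CD40 with Pam2CSK4 held with each array left out. Ptpn22 is expressed in T and myeloid cells too, and the part of the markers given above was not tested.

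Ptpn6, the SHP-1 phosphatase on which most of these receptors draw, read 4.63 and 4.69 in unstimulated cells, 4.63 and 4.38 with Pam2CSK4, 4.58 and 4.28 with anti-CD86, 4.80 and 4.33 in TLR2.CD86, 4.52 and 4.11 with anti-CD40, and 4.76 and 4.81 with anti-CD40 and Pam2CSK4. Its differences from unstimulated cells ran from -0.35, with anti-CD40 (interval -0.82 to 0.13, adjusted p = 0.275, limma), to 0.12, with anti-CD40 and Pam2CSK4 (interval -0.35 to 0.60). The intervals allow changes in either direction. The second Ptpn6 probe had the opposite sign in 4 of the 5 comparisons, reading 0.40 with anti-CD40 (adjusted p = 0.0583) where the first read -0.35, so that a direction for Ptpn6 cannot be given. In the slide-blocked fit the second probe was called with Pam2CSK4, in TLR2.CD86 and with anti-CD40 (0.47, 0.44 and 0.41, limma adjusted p = 0.041, 0.0192 and 0.0236), and the first in none of these. On slide 1 the second probe was 0.43 above unstimulated cells in the 1 TLR2.CD86 array.

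**Figure D2:**
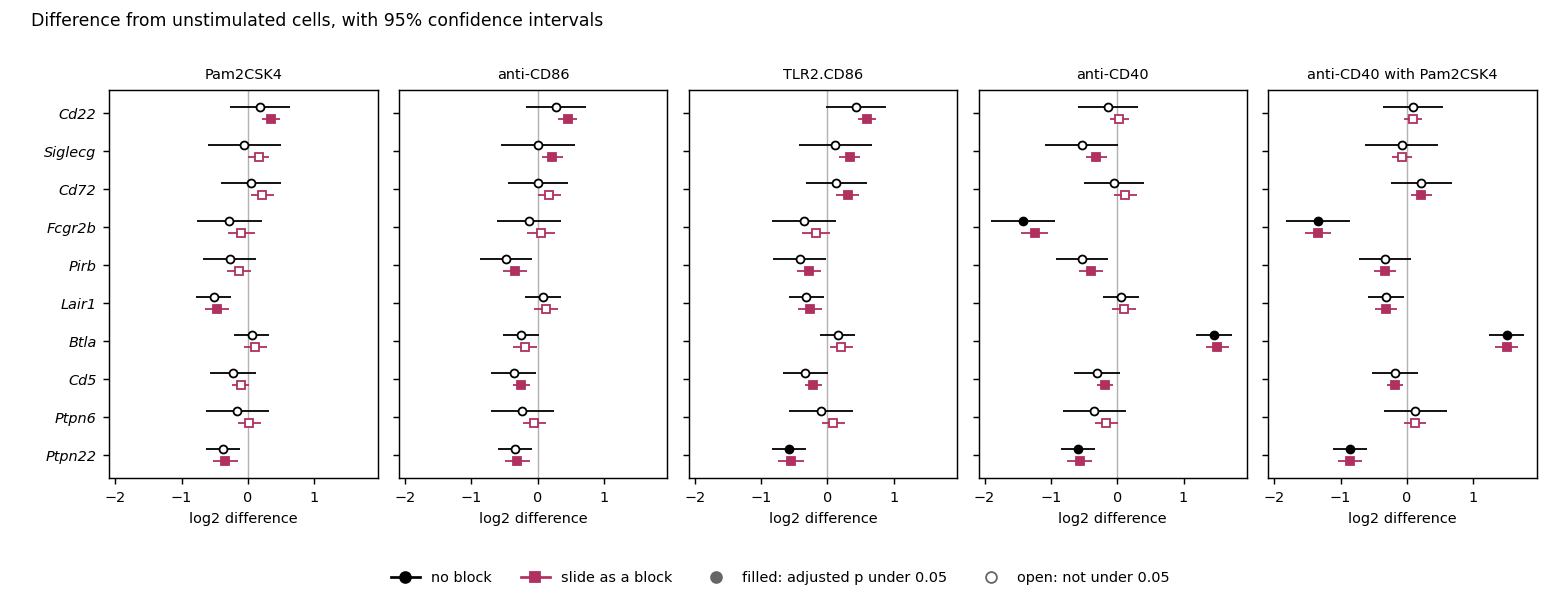
Difference in log2 signal from unstimulated cells for the 10 genes in each of the 5 stimulated groups, with 95% intervals from limma, without and with a term for the slide. The grey line marks 0. The Btla points at 1.46 and 1.50 and the Fcgr2b points at -1.42 and -1.35, in both groups with anti-CD40, stand farthest from 0.

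The effect of adding a signal was compared directly. Between TLR2.CD86 and Pam2CSK4 alone 0 of the 10 genes were called, where 0.0633% of all probes were, and 0 at an unadjusted p under 0.05. Between TLR2.CD86 and anti-CD86 alone 0 were called, where 0.225% of all probes were, and 2 at an unadjusted p under 0.05. In the slide-blocked fit, for which each of these groups has an array on both slides, 1 gene was called against Pam2CSK4 (Cd22, higher by 0.25, adjusted p = 0.039, limma; 10.7% of all probes) and 2 against anti-CD86 (Btla higher and Lair1 lower; 7.54% of all probes). The interaction of anti-CD86 and Pam2CSK4 was called for 0 of the 10 genes, beside 0.019% of all probes, and for 0 with the block, beside 0.234%.

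Anti-CD40 with Pam2CSK4 differed from Pam2CSK4 alone in 3 genes, where 9.91% of all probes were called. Btla was 2.72-fold higher (difference 1.45, adjusted p = 0.000546), Fcgr2b 2.1-fold lower (-1.07, adjusted p = 0.0181) and Ptpn22 1.41-fold lower (-0.49, adjusted p = 0.0303, all limma). With the block 5 were called (Btla higher, Cd22, Siglecg, Fcgr2b and Ptpn22 lower), against 31.4% of all probes. Leaving out either Pam2CSK4 array, or either array of anti-CD40 with Pam2CSK4, left 1 gene, Btla, called. The Ptpn22 call was also lost without either unstimulated or either anti-CD86 array.

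Against anti-CD40 alone, anti-CD40 with Pam2CSK4 was called for 0 of the 10 genes, where 2.9% of all probes were called, and 2 passed at an unadjusted p under 0.05. Btla differed by 0.04 (interval -0.22 to 0.31) and Fcgr2b by 0.08 (interval -0.41 to 0.56). With the block 2 genes were called (Ptpn6 higher by 0.29, Lair1 lower by 0.43), against 15% of all probes. The interaction of anti-CD40 and Pam2CSK4 was called for 0, beside 1.15% of all probes, and for 0 with the block, beside 8.41%.

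The 2 double stimulations were set against each other as well. Anti-CD40 with Pam2CSK4 exceeded TLR2.CD86 2.54-fold in Btla (1.35, adjusted p = 0.000653, limma) and was 1.99-fold lower in Fcgr2b (-0.99, adjusted p = 0.0206, limma), which made 2 called genes, where 12.2% of all probes were called. Without TLR2.CD86 replicate 1, or without either array of anti-CD40 with Pam2CSK4, 1 gene, Btla, was called. With the block 5 were called (Btla higher, Cd22, Siglecg, Fcgr2b and Ptpn22 lower), against 34.5%. Cd22 differed by -0.50 in that fit (adjusted p = 0.00126) and by -0.33 without the block (adjusted p = 0.307, limma).

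The gap between the replicates of a group followed the slides. In the 4 groups that lie on both slides, replicate 1 was the higher in 38 of 40 gene and group pairs, by a median of 0.26 (range -0.12 to 0.53). In the 2 groups with both arrays on slide 1 it was the higher in 6 of 20, by a median of -0.05 (range -0.13 to 0.06). By gene the median gap over the 4 groups ran from 0.10 for Lair1 and Ptpn22 and 0.13 for Btla to 0.45 for Siglecg.

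**Figure D3:**
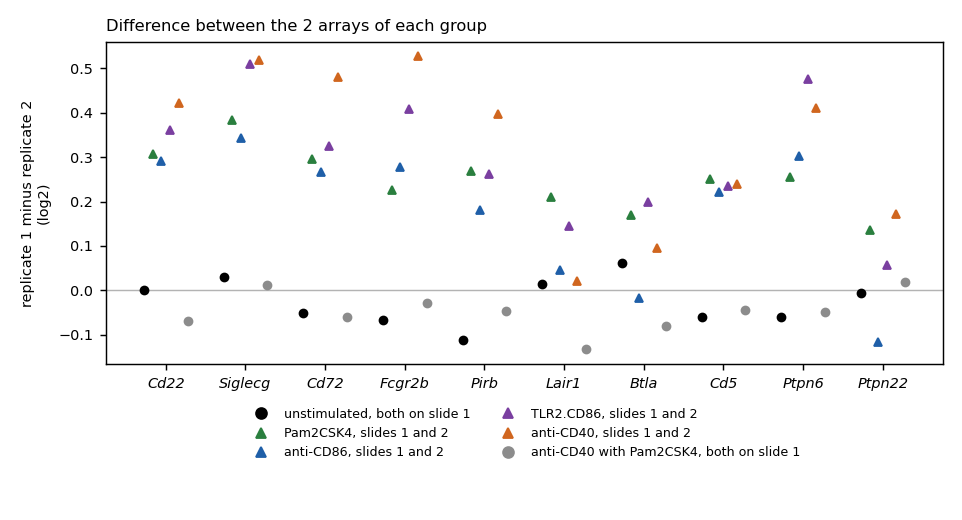
Replicate 1 minus replicate 2 in log2 signal for each of the 10 genes, with 1 point a group, coloured by group. The marker shape shows whether the replicates of the group share a slide or not. The groups split over both slides lie mostly above 0, in 38 of 40 pairs, and those on 1 slide lie around 0.

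The proteins that carry the signal of these receptors were taken as a list of 12 kinases, phosphatases and adaptors, all tested. With anti-CD40 4 of the 12 were lower (Csk, Dok3, Inpp5d and Lyn) and 0 higher, where 16.7% of all probes were called. With anti-CD40 and Pam2CSK4 3 were lower (Csk, Inpp5d and Lyn) and 0 higher, against 18.2% of all probes. In TLR2.CD86 1 was higher (Pag1, an anchor for Csk), against 10.6%, and with Pam2CSK4 or anti-CD86 alone 0 were called. After slide blocking 2 were higher with anti-CD40 (Dok1 and Grb2) and 5 lower (the same 4 and Dok2), against 37.1% of all probes. There 3 were higher with anti-CD40 and Pam2CSK4 (Cbl, Dok1 and Pag1) and 5 lower (Csk, Dok2, Dok3, Inpp5d and Lyn), against 47.4%. In the same fit 2 were higher with anti-CD86 (Cblb and Inppl1) and 1 lower (Dok2), against 28.3%. In TLR2.CD86 2 were higher (Cbl and Pag1) and 2 lower (Dok2 and Ptpn11), against 34.9%, and with Pam2CSK4 0 were called. The list's median difference was -0.18 with anti-CD40 and 0.01 with anti-CD40 and Pam2CSK4, beside -0.01 and 0.01 over all tested probes.

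Lyn, the kinase that phosphorylates the ITIMs, read 5.06 and 5.10 in unstimulated cells, 4.39 and 4.18 with anti-CD40, and 4.62 and 4.65 with anti-CD40 and Pam2CSK4. It fell by 0.79 (adjusted p = 0.00827, limma) and by 0.44 (adjusted p = 0.0458). Csk, the kinase that holds Src family kinases in check and the partner of Ptpn22, read 2.67 and 2.64 in unstimulated cells, 1.81 and 1.95 with anti-CD40, and 1.84 and 1.73 with anti-CD40 and Pam2CSK4. It fell by 0.77 and 0.87 (adjusted p = 0.0133 and 0.00553, limma). Inpp5d, which encodes the SHIP-1 phosphatase that acts with FcγRIIb, read 5.70 and 5.74 in unstimulated cells, 5.29 and 5.18, and 5.09 and 5.08, a fall of 0.49 and 0.63 (adjusted p = 0.0172 and 0.00429, limma). For each of these 3 genes, picked from the list for their low adjusted p, the 4 arrays with anti-CD40 lay below both unstimulated arrays. Of all tested probes 62.2% with anti-CD40 and 76% with anti-CD40 and Pam2CSK4 did not overlap with unstimulated cells. None of the 3 genes was called with Pam2CSK4, anti-CD86 or TLR2.CD86. All 3 calls with anti-CD40 were lost without either of the unstimulated arrays, that of Inpp5d also without anti-CD40 replicate 2. With anti-CD40 and Pam2CSK4 the call of Inpp5d held with each array left out in turn, that of Csk was lost without anti-CD40 with Pam2CSK4 replicate 2, and that of Lyn, the closest to the threshold, was lost in 8 of 12.

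Among 8 other inhibitory receptors 7 were tested, and Siglece was not well above background. Fcrl5, an Fc receptor-like ITIM protein of mature B cells, read -3.17 and -3.46 in unstimulated cells, -2.32 and -2.28 with anti-CD40, and -2.05 and -1.92 with anti-CD40 and Pam2CSK4. The differences were 1.02 (adjusted p = 0.0199, limma) and 1.33 (adjusted p = 0.00513), both called, and ranged over the alternatives from 0.39 to 1.16 and from 0.62 to 1.48. The probe is dim, and in unstimulated replicate 2 its -3.46 was close to the lowest signal well above background there, -3.52. Cd300a, an ITIM receptor for membrane lipids that is best known on myeloid cells, fell by 1.08 in TLR2.CD86 (adjusted p = 0.0108), by 0.94 with anti-CD40 (adjusted p = 0.00812) and by 0.56 with anti-CD40 and Pam2CSK4 (adjusted p = 0.0349, all limma). Pdcd1, which encodes PD-1, fell by 0.78 in TLR2.CD86 and by 0.69 with anti-CD40 (limma adjusted p = 0.0297 and 0.0314). Apart from these, 0 of the 7 were called without the block, and 0 were with Pam2CSK4 or anti-CD86 alone. Of all probes 10.6% were called in TLR2.CD86, 16.7% with anti-CD40 and 18.2% with anti-CD40 and Pam2CSK4. With Pam2CSK4 and anti-CD86 alone 0.136% and 2.14% were. Both calls of Fcrl5 were lost with quantile normalization and without unstimulated replicate 2, and that with anti-CD40 also with normexp background correction, without unstimulated replicate 1 and without anti-CD40 replicate 2. Leaving out either unstimulated array ended the calls of Cd300a and Pdcd1. With each array left out in turn, those of Cd300a were lost in 3, 2 and 6 of 12 fits and those of Pdcd1 in 6 and 5, in the order given. After slide blocking Fcrl5 was also called higher in TLR2.CD86 and Pdcd1 lower in all 5 groups, and Pecam1 and Cd200r1 were each called higher in 1 or more groups and lower in another. In that fit 10.8% to 47.4% of all probes were called in these comparisons. The Cd300a difference ranged over the alternatives from -1.37 to -0.45 in TLR2.CD86, from -1.63 to -0.43 with anti-CD40 and from -0.67 to -0.11 with anti-CD40 and Pam2CSK4. Its probe is dim as well. It read -3.76 in TLR2.CD86 replicate 1, where the lowest signal well above background was -3.87. With anti-CD40 it read -3.44 and -3.62, where that lowest signal was -3.58 and -3.69. The part of the myeloid markers, which were lower in the same groups, was not tested.

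Of 5 ligands and ligand-making enzymes, 1 was called in 1 comparison without the block, where 18.2% of all probes were called. St6gal1, the enzyme that makes the α2,6-linked sialic acid bound by Cd22, fell by 0.51 with anti-CD40 and Pam2CSK4 (adjusted p = 0.0496, limma; lost in 10 of 12 fits with an array left out), and read -0.46 with anti-CD40 (adjusted p = 0.0709) and -0.47 in TLR2.CD86 (adjusted p = 0.0791). After slide blocking 2 of the 5 were higher with anti-CD86 (Cmah and Tnfrsf14) and 1 lower (Cd24a), against 28.3% of all probes. In TLR2.CD86 Cmah was then higher and St6gal1 lower, against 34.9%. With anti-CD40 2 were lower (Cmah and St6gal1), against 37.1%. With anti-CD40 and Pam2CSK4 3 were lower (Cmah, St6gal1 and Tnfrsf14), against 47.4%, and with Pam2CSK4 0 were called. Of 11 activating receptors related to the 10 genes, 7 are named on the array and 6 were tested. With anti-CD40 2 of the 6 were lower, Fcgr4 and Pira11, by 0.59 each (limma adjusted p = 0.0346 and 0.0189), where 16.7% of all probes were called, and in the other 4 comparisons 0 were called. The Fcgr4 call was lost on slide 1 alone and in 7 of 12 fits with an array left out, and its difference ranged from -1.20 to -0.28 over the alternatives.

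**Figure D4:**
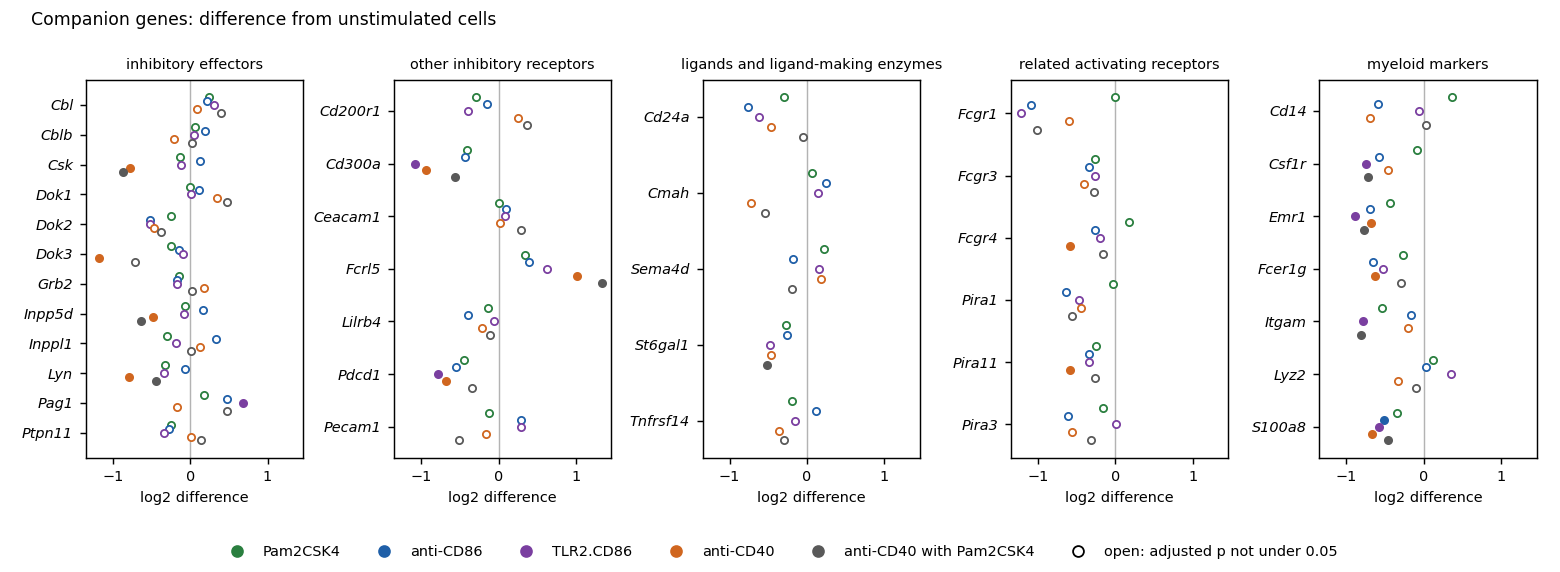
Difference in log2 signal from unstimulated cells for the tested genes of the companion lists and the unsaturated myeloid markers, in each of the 5 stimulated groups. The fit is the one without a block, and open points had an adjusted p not under 0.05 (limma). With anti-CD40 Lyn, Csk and Inpp5d lie at -0.79, -0.77 and -0.49, and Fcrl5 lies at 1.02.

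The scaling of the arrays bears on these directions. Scaling to the median in place of the 75th percentile moved the median of all tested probes by -0.19 with Pam2CSK4, -0.14 with anti-CD86, -0.29 in TLR2.CD86, -0.57 with anti-CD40 and -0.11 with anti-CD40 and Pam2CSK4. Each scaling subtracts a constant from an array, so differences relative to the median of all probes cannot differ between the scalings. With anti-CD40 they are 1.47 for Btla and -1.41 for Fcgr2b. Under scaling to the median Btla was 0.89 above unstimulated cells with anti-CD40 and Fcgr2b 1.99 below, and of the 10 genes 1 was called, Fcgr2b. Cd22 read -0.02 with Pam2CSK4 in place of 0.18. None of the companion genes was called against unstimulated cells under that scaling.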

How the data were processed

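RNA of 12 samples, 2 in each of 6 groups, was labelled with Cy3 and hybridised, 1 sample an array, to a custom Agilent mouse microarray designed on the mm9 genome. The authors deposited scanner files of Agilent Feature Extraction, whose intensity values (processed signals) have background and spatial trend removed within the array. They also deposited a value table on the log2 scale, which equalled the values used here up to a constant for each array and was used as an alternative. The labels state no pooling of samples.

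From the intensities, spots flagged as outliers and control spots were left out, spots of 1 probe were averaged, and the 75th percentile of each array was subtracted on the log2 scale. The percentiles were intensities of 234.1 to 390.3, and precision is limited by how few arrays there were. Of 61307 probes, 31669 passed a filter, which asked that 1 or more groups have both arrays well above background, 70 of these lacked a value on some array, and 31599 were tested with limma 3.58.1 in R 4.3.3 (lmFit and eBayes), with 1 coefficient a group over all 12 arrays and Benjamini-Hochberg adjustment over all probes. Calls needed an adjusted p under 0.05. Scripts were tested on simulated data. Tables used Python 3.11.15.

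The brightest probe stood for a gene. From each companion or marker list the 3 called genes with the smallest adjusted p were followed, and all but the natural killer cell marker Klrb1c are described. Pag1, Dok3 and others called are named in counts. The genes, lists and tests were chosen with earlier results of these data known. The alternatives were other scalings, background correction (normexp, offset 50), filters, the slide or the replicate number as a block, slide 1 alone, the groups compared alone, a one-way test without moderation as the study's methods name, other probes, and each array left out in turn. For the companion genes they were chosen after seeing the data. Promoter windows and the RefSeq gene table came from GRCm38.p6 and were used by gene name, since the array's annotation is on mm9. The steps of the study's own test beyond its name are not given in the sources used here.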

Additional observations from a re-analysis of the deposited data

Results flagged for a closer look

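Ptpn6, the SHP-1 gene, was flagged because the effect of anti-CD40 had opposite signs in the absence and presence of Pam2CSK4 on every array. With anti-CD40 alone both arrays (4.52 and 4.11) lay below both unstimulated arrays (4.63 and 4.69), a difference of -0.35, while anti-CD40 with Pam2CSK4 (4.76 and 4.81) lay above Pam2CSK4 alone (4.63 and 4.38), a difference of 0.28. The difference between the 2 effects was 0.63 (interval -0.05 to 1.30, adjusted p = 0.278, limma) and did not pass the test; with the slide as a block it was 0.27 (adjusted p = 0.183). The second Ptpn6 probe gave -0.64 for the same quantity (interval -1.03 to -0.24, adjusted p = 0.141), with the opposite sign. Groups of 2 arrays were too small for any test of outlying samples.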

How the results depend on the processing

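Of the 10 genes in 12 comparisons, 12 pairs were called, and 263 of their 312 values under the alternatives kept the call. None of these 312 reversed the call. Over called and uncalled pairs together there were 3120 alternative values, of which 192 changed sign where nothing was called. Some of the 312 could hardly differ. The authors' value table equals the values used here up to a constant for each array, and Btla and Ptpn22 have 1 probe, so that other probes could not change theirs. The most calls were added by the slide as a block, with 3 (Pam2CSK4), 5 (anti-CD86), 7 (TLR2.CD86), 6 (anti-CD40) and 7 (anti-CD40 with Pam2CSK4) genes against unstimulated cells. It gave 1 for TLR2.CD86 against Pam2CSK4, 2 against anti-CD86, and for anti-CD40 with Pam2CSK4 5 against Pam2CSK4, 2 against anti-CD40 and 5 against TLR2.CD86. As a random block (correlation 0.706) the slide gave 2, 4, 7, 5 and 5 against unstimulated cells, 2 for TLR2.CD86 against anti-CD86, and 1 and 5 for anti-CD40 with Pam2CSK4 against anti-CD40 and TLR2.CD86. Slide 1 alone, where the other 4 stimulated groups had 1 array each, gave 5 for anti-CD40 with Pam2CSK4 against unstimulated cells.

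The one-way test of the methods at an unadjusted p under 0.05 gave 2, 4 and 3 for Pam2CSK4, anti-CD86 and TLR2.CD86 against unstimulated cells, 1 and 3 for TLR2.CD86 against Pam2CSK4 and anti-CD86, 2 for anti-CD40 with Pam2CSK4 against anti-CD40, and 1 for the interaction of anti-CD86 and Pam2CSK4. Quantile normalization gave 2 for TLR2.CD86. Scaling to the median gave 0 for TLR2.CD86, 1 for anti-CD40 and 0 for anti-CD40 with Pam2CSK4, each against unstimulated cells, and 0 for the latter against Pam2CSK4 and against TLR2.CD86; over all probes the share of higher calls in TLR2.CD86 was 31.9%, and 62.9% with that scaling. With the groups compared alone the counts were against unstimulated cells 0 for TLR2.CD86, 0 for anti-CD40 and 5 for anti-CD40 with Pam2CSK4, and 1 for the latter against Pam2CSK4 and against TLR2.CD86. Without a filter they were 0 for TLR2.CD86 against unstimulated cells, and 1 for anti-CD40 with Pam2CSK4 against Pam2CSK4 and against TLR2.CD86. The cause of these changes was not tested.

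With each array left out in turn the counts ranged from 0 to 1 for TLR2.CD86, 1 to 4 for anti-CD40 and 3 to 3 for anti-CD40 with Pam2CSK4, each against unstimulated cells, from 1 to 3 for the latter against Pam2CSK4 and from 1 to 2 against TLR2.CD86, and were 0 elsewhere; a group left with 1 array was assumed to vary like the others. With the replicate number as a block 5 genes were called with anti-CD40 in place of 3, and no other count moved by over 1.5 times. The numbers did not pair the samples: deviations from the group means correlated at 0.54 to 0.67 among the 4 groups on both slides, and at -0.11 to 0.07 in pairs with unstimulated cells or anti-CD40 with Pam2CSK4.

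Of 31 called pairs of a comparison and a companion gene or marker chosen by the naming rule (Pag1, Dok3, Csf1r and Fcer1g, also called, were not followed), 3 kept the call with every array left out in turn. None of their alternative values reversed a call, and the 1800 alternative values of these genes include uncalled pairs. All values of the brightest Lair1 probe lay above the lowest signal well above background, and no depth applies to arrays.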
